A study of Rattus norvegicus with 13 samples.

Results

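The potassium channel genes are the genes whose symbol on the array begins with Kcn, apart from Kcnj8, Kcnj10 and Kcnj13. The array carried 92 such symbols, and with those 3 left out 89 remained, on 126 probes. A gene was counted as measured if at least 1 of its probes was well above background in every spot on all arrays of at least 1 group, and its brightest probe was used. This left 73 measured genes, on 100 probes, of 17250 genes tested. The names are those of the array design. Kcnq5l is its name for Kcnq5, and Kcne1l is its name for Kcne5.

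The tissue was frontal cortex of male Sprague-Dawley rats, taken 1 month after head trauma or sham surgery, with 1 single-colour array per sample. Head acceleration rotational injury (3 samples) and lateral fluid percussion injury (3 samples) each had a sham group of its own (3 rotational and 4 percussion samples), anaesthetised and operated on but not injured. The labels number the samples within a group and do not say how the tissue was divided, so p-values rest on the spread seen between samples. Levels are log2 processed signal minus the 75th percentile of the array, and a level of 0 is that percentile. Levels of different genes come from different probes and are not set against each other.

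Each model lay on a slide of its own. On the rotational slide the sham arrays were in column 1 and the trauma arrays in column 2, and on the percussion slide the order was the opposite. Trauma and slide column therefore cannot be told apart within a model. A constant effect of the column would cancel in the mean of both trauma effects and remain in their difference. Model and slide cannot be told apart between the sham groups. The share of spots well above background lay between 73.1% and 74.1% in rotational sham, 67.0% and 72.5% in rotational trauma, 67.6% and 69.4% in percussion sham, and 72.7% and 73.8% in percussion trauma, so it was higher in column 1 on both slides. Arrays of 1 group correlated at 0.988 to 0.997 over all genes. All 6 neuron markers and all 4 interneuron markers were measured. Summed levels of 6 meningeal markers lay at 5.14 to 6.12 in rotational sham and 6.34 to 6.96 in rotational trauma, and at 5.30 to 6.02 in percussion sham and 6.39 to 7.25 in percussion trauma. All 6 had positive estimates in both models and none passed in limma. Summed levels of 4 mural cell markers were also higher after both traumas (0.43 to 0.80 against 1.02 to 1.58, and 0.92 to 1.16 against 1.32 to 1.87). Of 6 striatal markers 5 were measured, with Drd1 the exception, and their summed level was 2.39 to 3.79 in rotational sham and 2.01 to 2.92 in the other 3 groups. In bulk tissue, fewer cells of a type and less RNA per cell cannot be told apart.

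Potassium channels let potassium leave a neuron, which sets its resting potential, ends its action potentials and limits its firing rate. The voltage-gated Kv families open on depolarisation, the inward rectifiers and the two-pore channels carry current near rest, and the BK and SK channels respond to calcium. Silent modifier subunits form no channel of their own and join other Kv pores, while cytosolic and membrane auxiliary subunits tune how the pores open, close and reach the surface.

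The probes of Kcnf1, Kcnk5 and Kcnq3 are shown because these genes carry the patterns described below and because the probes of Kcnq3 disagreed. Each probe has 60 bases. The lines give bases 31 to 60, 5′ to 3′, as the scanner files hold them. Positions are those in the files, on rat build rn4, for the whole probe. The probe of Kcnf1 lies at chr6:40911052-40911111 on the minus strand and that of Kcnk5 at chr15:4424253-4424312 on the plus strand. Kcnq3 probes 1 and 2 lie at chr7:103325194-103325253 and chr7:103327700-103327759 on the minus strand. Exon and UTR annotation was not used here.
Kcnf1: cataggacccggctacagagctgcaagtga
Kcnk5: gagccatagtaaccacactgtatgcatgta
Kcnq3 probe 1: gtctgtatcagccaaatacatatttgacaa
Kcnq3 probe 2: atatggaccccttccaacaagcccacttag

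Probe 1 of Kcnq3 is the brighter one and is used below, except where both probes are named.

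The detection rule decided which genes could be described. Of the 73 measured genes, 66 were above background on all 13 arrays. Kcnj1, a renal outer medullary channel pore, passed through the percussion trauma group alone (3 of 3 arrays, and 0 in every other group). Kcnk15, a two-pore channel, passed through that group too (3 of 3 arrays, against 3 of 4 percussion sham, 1 of 3 rotational trauma and 0 of 3 rotational sham arrays). Kcna3, Kcnh5, Kcnk16 and Kcnv2 missed the rule in 1 group each.

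Among the 16 genes that were not measured, 12 were above background on no array. Among these were Kcna10, Kcne1, Kcne3, Kcne4, Kcng4, Kcnh8, Kcnj15, Kcnk18, Kcnmb1, Kcnmb3 and Kcnrg. Just outside the rule, Kcnk9 was above background on 2 of 3 rotational sham arrays and 2 of 3 percussion trauma arrays. Kcna7 reached 2 and 1 of these arrays, Kcnn4 reached 1 and 2, and Kcnj2 reached 0 and 1. None of these 4 was above background on a rotational trauma or percussion sham array, which are the arrays of slide column 2.

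The first comparison asked how the genes differed after rotational injury. None of the 73 genes passed an adjusted p of 0.05 in limma, where 0.0116% of all genes passed (2 genes), and the smallest adjusted p of a potassium channel gene was 0.544. At an unadjusted p under 0.05 there were 2 potassium channel genes, against 7% of all genes. The estimate was below 0 for 53 of 73 genes, where 61.9% of all genes were lower, and the median difference was -0.09 against -0.03 over all genes. Of the 66 genes above background on all arrays, 51 were lower, with a median of -0.09. Trauma and sham values did not overlap for 9 genes (2 higher, 7 lower), where 15.8% of all genes did not overlap (4.53% higher, 11.3% lower).

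After percussion injury the estimates split evenly. None of the 73 genes passed in limma, nor did any of all genes (0%), and the smallest adjusted p of a potassium channel gene was 0.256. At an unadjusted p under 0.05 there were 7 of them, against 11.5% of all genes. The estimate was above 0 for 37 genes and below 0 for 36, where 56.9% of all genes were higher, and the median was 0.00 against 0.03. The 37 include Kcnj1 and Kcnk15, which were admitted through percussion trauma alone. Of the 66 genes above background on all arrays, 31 were higher and 35 lower, with a median of -0.02. Over all genes above background on all arrays the median was 0.02, and 44.2% were lower. Groups did not overlap for 7 genes (3 higher, 4 lower), where 9.98% of all genes did not (6.93% higher, 3.05% lower). The mean and the difference of both effects likewise gave 0 passing genes (0% of all genes in both), with 7 and 4 potassium channel genes at an unadjusted p under 0.05, against 8.82% and 9.25% of all genes. The difference was above 0 for 46 of 73 genes, where 62% of all genes were higher. These 7 genes in the mean of both effects are 9.59% of the 73, close to the background, and in the other 3 tests the share was below it.

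The intervals give the precision of each estimate. They are for single genes, are not adjusted over the 73 genes, and cover trauma together with slide column. The 95% interval of the difference lay within a 2-fold change in either direction for 68 of 73 genes after rotational injury and for 67 of 73 after percussion injury. The exceptions after rotational injury were Kcna3, Kcnj1, Kcnk5, Kcnk15 and Kcnk16, and after percussion injury Kcna3, Kcnj1, Kcnj16, Kcnk15, Kcnk16 and Kcnq5l. The standard error (SE) of the rotational difference ranged from 0.07 for Kcnh1 to 0.98 for Kcnk15, with a median of 0.14.

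**Figure D1:**
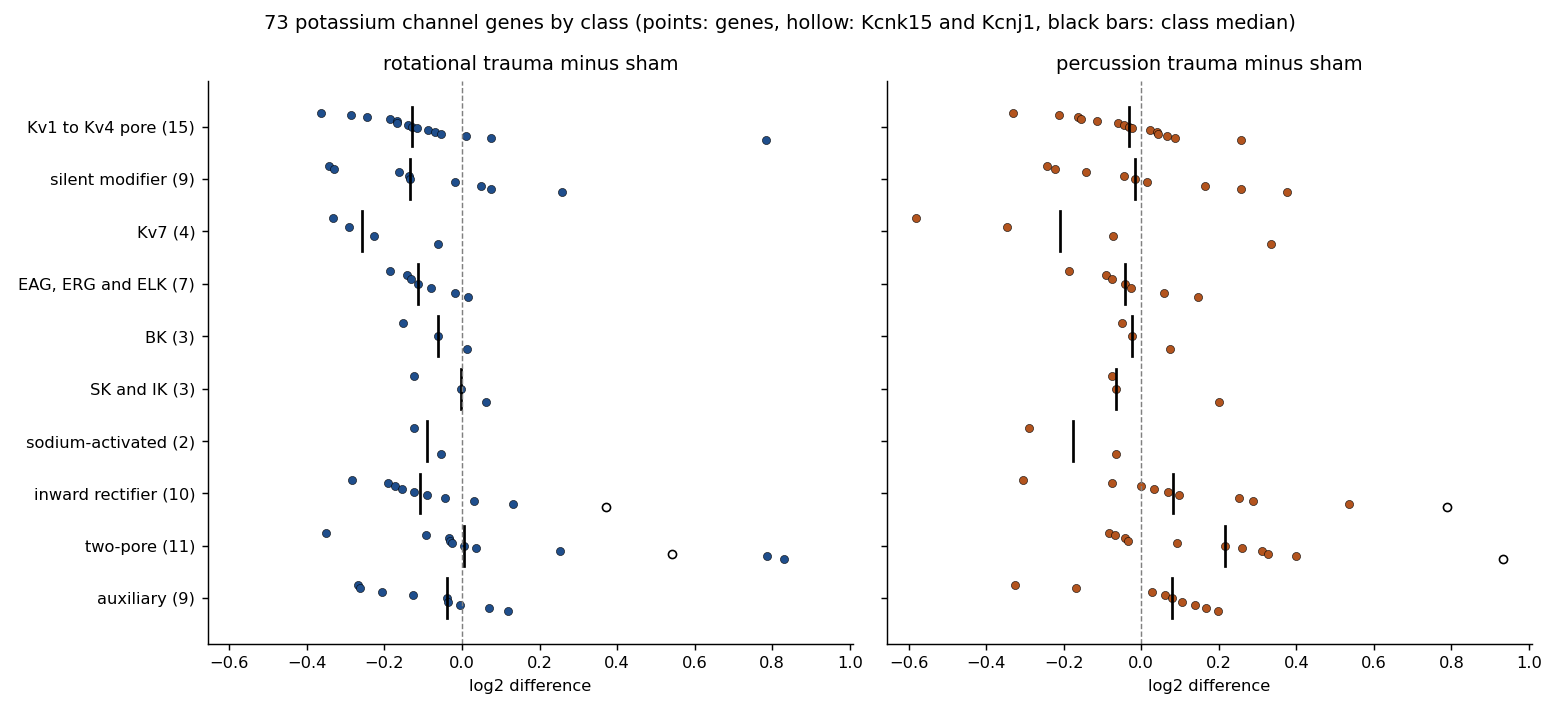
Log2 difference between trauma and sham for each of the 73 genes (points), by channel class with the number of genes in brackets, in the rotational model on the left and the percussion model on the right; black bars are class medians. Most rotational points lie left of 0 (53 of 73), while the percussion points split 37 to 36, and the hollow points are Kcnk15 and Kcnj1, which no rotational sham array measured above background.

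Kcnf1, the silent subunit Kv5.1, had opposite differences in the models. Its levels were -0.53, -0.56 and -0.71 in rotational sham and -1.02, -0.96 and -0.86 in rotational trauma. They were -1.27, -1.07, -1.08 and -1.16 in percussion sham and -0.73, -0.54 and -1.05 in percussion trauma. All rotational trauma samples lay below all rotational sham samples, and all percussion trauma samples lay above all percussion sham samples, although percussion trauma 3 at -1.05 was close to percussion sham 2 at -1.07. The difference was -0.34 (SE 0.12) in the rotational model and 0.37 (SE 0.11) in the percussion model, with limma adjusted p of 0.58 and 0.26. Without percussion trauma 3 the percussion difference was 0.51 and passed (limma adjusted p = 0.045), in a fit where 0.533% of all genes passed, against 0% with all samples. Over all alternatives its limma adjusted p ranged from 0.045 to 0.50.

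The difference between both effects in Kcnf1 was 0.72 (SE 0.16), and its limma adjusted p of 0.21 was the smallest of the potassium channel genes in that test. It was the only 1 of 73 genes that was separated downward in the rotational model and upward in the percussion model, a pattern of 0.736% of all genes, and no other of the 73 was separated in both models. The arrays with the higher Kcnf1 level were those of slide column 1 on both slides. The same direction, lower after rotational and higher after percussion injury, held for 26 of 73 potassium channel genes and for 35.2% of all genes, and the opposite one for 9 of 73 and 16.3% of all genes. Its level in both trauma groups overlapped, between -1.02 and -0.86 and between -1.05 and -0.54, while the sham groups were apart.

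The other silent modifiers carried smaller estimates. Kcns1 (Kv9.1) was at -1.37, -1.30 and -1.16 in rotational sham and -1.22, -0.95 and -0.88 in rotational trauma, and at -2.11, -1.63, -1.74 and -1.91 in percussion sham and -1.97, -2.04 and -2.25 in percussion trauma. Its groups overlapped in both models, with differences of 0.26 (SE 0.13) and -0.24 (SE 0.12), opposite in sign to those of Kcnf1 (difference between both effects -0.50, SE 0.18, limma adjusted p = 0.44). Kcns2 (Kv9.2) differed by -0.33 (SE 0.18) and 0.17 (SE 0.17). Kcns3 (Kv9.3) differed by -0.14 (SE 0.11) and -0.02 (SE 0.11), and Kcnv1 (Kv8.1) by -0.13 (SE 0.10) and -0.04 (SE 0.09). Of the 9 measured silent modifiers, 6 were lower after rotational injury and 5 after percussion injury, with medians of -0.13 and -0.02.

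**Figure D2:**
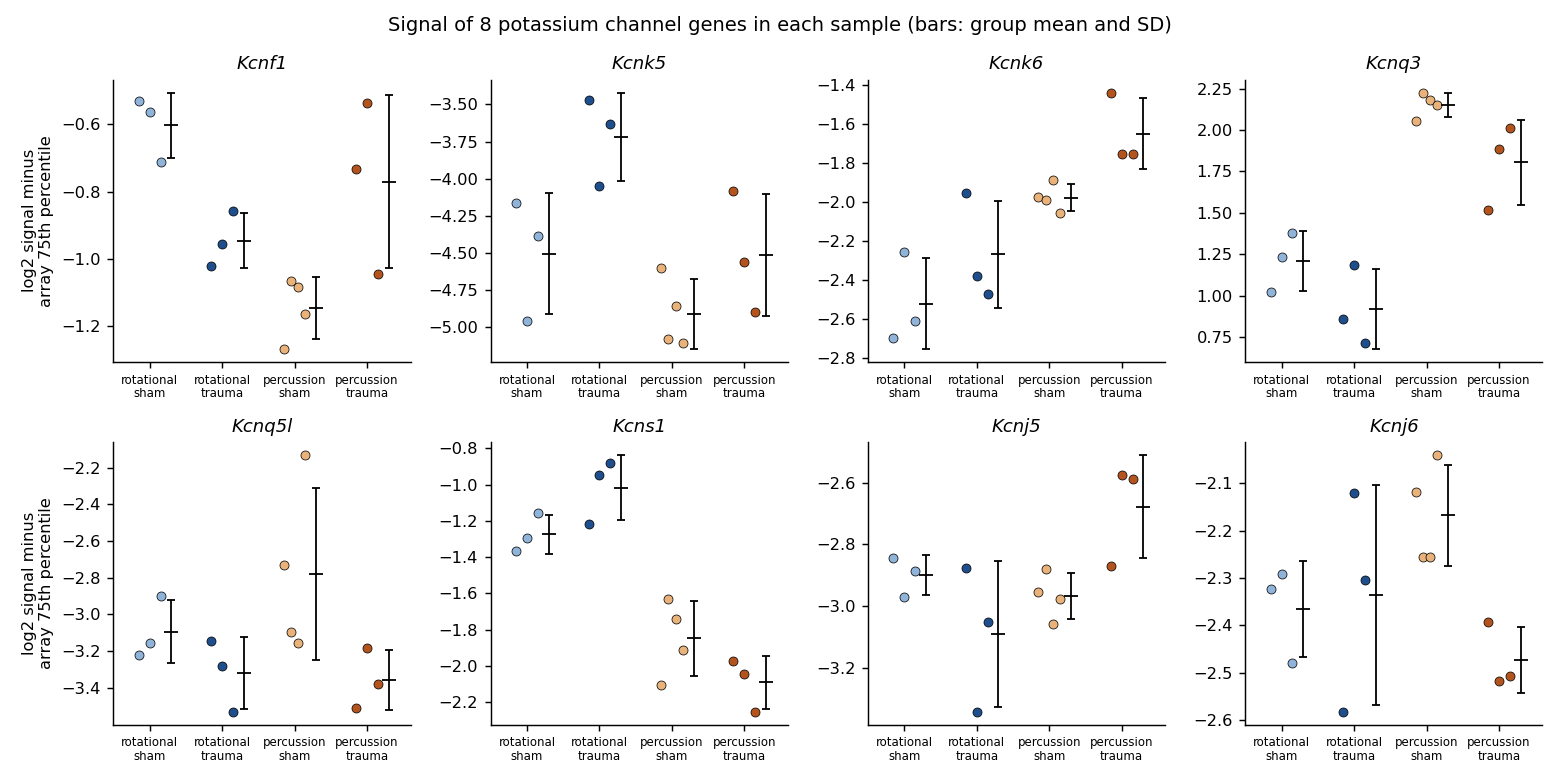
Level of 8 genes in every sample of the 4 groups (points), as log2 signal minus the 75th percentile of the array, with the group mean and SD beside the points; each panel has its own vertical scale. Kcnf1 is lower in rotational trauma (-1.02 to -0.86) than in rotational sham (-0.71 to -0.53) and higher in percussion trauma (-1.05 to -0.54) than in percussion sham (-1.27 to -1.07), while Kcnq3 sits higher on the percussion slide in every sample.

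The Kv7 genes Kcnq3 and Kcnq5 encode pores of the M current, a slow current that muscarinic receptors switch off and that restrains repetitive firing. Kcnq3 was at 1.02, 1.23 and 1.38 in rotational sham and 0.86, 1.18 and 0.71 in rotational trauma. It was at 2.05, 2.23, 2.18 and 2.15 in percussion sham and 1.52, 1.88 and 2.01 in percussion trauma. All percussion trauma samples lay below all percussion sham samples, and in the rotational model rotational trauma 2 lay inside the sham range. The differences were -0.29 (SE 0.15) and -0.35 (SE 0.14), and their mean was -0.32 (SE 0.10, limma adjusted p = 0.35). Without percussion trauma 1 the percussion difference was -0.20.

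Kcnq5l was at -3.22, -3.16 and -2.90 in rotational sham and -3.15, -3.28 and -3.53 in rotational trauma. It was at -2.73, -3.09, -3.15 and -2.13 in percussion sham and -3.51, -3.18 and -3.38 in percussion trauma. Percussion sham 4 stood highest at -2.13, and the closest pair across the percussion groups was -3.15 and -3.18. The differences were -0.23 (SE 0.23) and -0.58 (SE 0.21, limma adjusted p = 0.35), and the percussion difference was -0.36 without percussion sham 4.

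Kcnq1, best known from heart and inner ear, differed by -0.06 (SE 0.17) and -0.07 (SE 0.16) in its brightest probe. Its other probe, above background on 13 arrays too, gave -0.29 (SE 0.09) and 0.14 (SE 0.09).

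Among the Kv1 to Kv4 pores, 12 of 15 were lower after rotational injury and 9 of 15 after percussion injury, with medians of -0.13 and -0.03. Kcna1 and Kcna2, the axonal pores Kv1.1 and Kv1.2, differed by 0.07 (SE 0.14) and -0.05 (SE 0.18) after rotational injury. Their percussion differences were -0.21 (SE 0.13) and -0.16 (SE 0.17). Kcna1 was at 2.69, 2.73, 2.72 and 2.66 in percussion sham and 2.34, 2.54 and 2.58 in percussion trauma, and these groups did not overlap. Without percussion trauma 3 the percussion difference of Kcna2 was -0.40, with the same sign.

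Kcna4 (Kv1.4), a fast-inactivating pore, was at -1.59, -1.45 and -1.42 in rotational sham and -1.80, -1.73 and -1.66 in rotational trauma, without overlap. The difference was -0.24 (SE 0.13, limma adjusted p = 0.78), and after percussion injury it was -0.06 (SE 0.12). Kcna3 (Kv1.3), which lymphocytes and microglia also use, had rotational sham levels of -5.10, -5.14 and -5.38 and rotational trauma levels of -3.28, -5.04 and -4.95. Its groups did not overlap, but rotational trauma 1 alone stood far from the rest, and the difference of 0.78 (SE 0.45) was 0.21 without it. The 5 microglial markers had a summed level of 3.10 to 3.19 in rotational sham and 2.97 to 3.29 in rotational trauma. Kcna5, Kcna1 and Kcna6 lie within 223 kb of each other on chromosome 4, and Kcna2 and Kcna3 lie 89.8 kb apart on chromosome 2 (distances between probes).

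Kv3 pores support fast spiking of interneurons. Kcnc1 (Kv3.1) differed by -0.09 (SE 0.17) and -0.11 (SE 0.16), and Kcnc2 (Kv3.2) by -0.07 (SE 0.15) and -0.03 (SE 0.14). The summed level of the 4 interneuron markers was 5.28 to 5.46 in rotational sham and 5.25 to 5.30 in rotational trauma, and 5.23 to 5.47 in percussion sham and 5.28 to 5.33 in percussion trauma.

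Kcnd2 (Kv4.2), the dendritic A-type pore, differed by -0.12 (SE 0.10) and -0.04 (SE 0.10), and Kcnd3 (Kv4.3) by -0.19 (SE 0.24) and -0.02 (SE 0.22). The other kept probes of Kcnd3 gave 0.08 (SE 0.25), -0.47 (SE 0.30) and -0.10 (SE 0.19) after rotational injury. After percussion injury they gave 0.23 (SE 0.24), -0.06 (SE 0.28) and 0.19 (SE 0.18). The A-type list holds Kcna4, the 3 Kcnd pores, the 4 Kcnip proteins that bind them and Kcnab1. In the brightest probe of each gene, all 9 estimates of this list were below 0 after rotational injury, with a median of -0.14. The one closest to 0 was Kcnip1 at -0.006, and the Kcnd3 probe at 0.08 had the opposite sign. For 4 of 9 the groups did not overlap, where 61.9% of all genes were lower and 11.3% were separated downward. After percussion injury 4 of 9 were below 0, where 43.1% of all genes were, with a median of 0.03 and no separated group. None of the 9 passed in limma in either model.

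The A-type auxiliary subunits had values of like size. Kcnab1, the beta subunit that speeds inactivation of Kv1 pores, was at 1.59, 1.53 and 1.60 in rotational sham and 1.43, 1.26 and 1.24 in rotational trauma. It was at 0.51, 1.03, 1.12 and 0.86 in percussion sham and 0.73, 1.07 and 1.16 in percussion trauma. The rotational groups did not overlap and the percussion groups did, with differences of -0.26 (SE 0.15) and 0.11 (SE 0.14).

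Kcnip4 (KChIP4), a calcium sensor bound to Kv4 pores, was at -0.56, -0.60 and -0.53 in rotational sham and -0.67, -0.72 and -0.92 in rotational trauma, without overlap (difference -0.21, SE 0.13). After percussion injury it differed by -0.17 (SE 0.12), and by -0.34 without percussion trauma 3. Kcnip3, also known as calsenilin and DREAM, differed by -0.04 (SE 0.09) and 0.03 (SE 0.08). Kcnab2, the partner of axonal Kv1 pores, differed by -0.04 (SE 0.10) and 0.06 (SE 0.10), the second of which was -0.08 without percussion trauma 3. Kcne2, a membrane auxiliary subunit abundant in choroid plexus, differed by 0.07 (SE 0.15) and -0.33 (SE 0.14). Of 4 choroid plexus markers 2 were measured, both with positive estimates after each trauma, while Kl and Folr1 were not. Their part in the value of Kcne2 was not tested.

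In the Kcnh family, Kcnh1 (EAG1) had the smallest SE of all 73 genes. It was at 2.70, 2.75 and 2.72 in rotational sham and 2.55, 2.62 and 2.67 in rotational trauma, and at 2.44, 2.63, 2.50 and 2.53 in percussion sham and 2.36, 2.46 and 2.48 in percussion trauma. The rotational groups did not overlap and the percussion groups did. The differences were -0.11 (SE 0.07) and -0.09 (SE 0.06), with a mean of -0.10 (SE 0.05, limma adjusted p = 0.57). Kcnh7 (ERG3) differed by -0.16 (SE 0.07) on average over both models. Of the 7 measured Kcnh genes 6 were lower after rotational injury and 5 after percussion injury.

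Next come the calcium- and sodium-activated channels. Kcnma1, the BK pore, differed by -0.06 (SE 0.14) and -0.05 (SE 0.13), and by -0.25 in the rotational model without rotational trauma 2. The other kept probes of Kcnma1 gave -0.18 (SE 0.09) and -0.18 (SE 0.12) after rotational injury. After percussion injury they gave 0.12 (SE 0.09) and 0.01 (SE 0.12). The neuronal BK beta subunit Kcnmb4 differed by -0.15 (SE 0.12) and 0.07 (SE 0.11). The SK pores Kcnn1, Kcnn2 and Kcnn3 lay between -0.12 and 0.06 after rotational injury and between -0.07 and 0.20 after percussion injury, with Kcnn2 (SK2) at 0.00 (SE 0.14) and -0.07 (SE 0.13). Kcnt1, the sodium-activated pore Slack, differed by -0.12 (SE 0.13) and -0.06 (SE 0.12). Kcnt2, the related pore Slick, differed by -0.05 (SE 0.18) and -0.29 (SE 0.17).

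Kcnj3, Kcnj5, Kcnj6 and Kcnj9 encode the GIRK pores that G proteins open downstream of inhibitory receptors. Kcnj6 (GIRK2) was at -2.12, -2.26, -2.26 and -2.04 in percussion sham and -2.39, -2.52 and -2.51 in percussion trauma, so that all trauma samples were below all sham samples. Kcnj5 (GIRK4) was at -2.95, -2.88, -3.06 and -2.98 in percussion sham and -2.87, -2.58 and -2.59 in percussion trauma, the opposite order, with percussion trauma 1 at -2.87 beside percussion sham 2 at -2.88. The percussion differences were -0.30 (SE 0.11) for Kcnj6 and 0.29 (SE 0.11) for Kcnj5, with limma adjusted p of 0.32 and 0.35.

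In the rotational model these 2 genes overlapped between groups. Kcnj6 was at -2.32, -2.29 and -2.48 in sham and -2.58, -2.12 and -2.30 in trauma (difference 0.03, SE 0.11, and -0.08 without rotational trauma 2). Kcnj5 was at -2.84, -2.97 and -2.89 in sham and -2.88, -3.34 and -3.05 in trauma (difference -0.19, SE 0.12). The difference between both effects was 0.48 (SE 0.16) for Kcnj5 and -0.33 (SE 0.15) for Kcnj6, with limma adjusted p of 0.40 and 0.54.

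Kcnj3 (GIRK1), the obligate partner in most neuronal GIRK channels, was at 1.75, 1.51 and 1.49 in rotational sham and 1.19, 1.64 and 1.08 in rotational trauma, with rotational trauma 2 inside the sham range. Its differences were -0.28 (SE 0.15) and 0.03 (SE 0.14), and those of Kcnj9 (GIRK3) -0.17 (SE 0.15) and 0.00 (SE 0.14). Kcnj11, the pore of the ATP-sensitive channel, differed by -0.15 (SE 0.19) and 0.25 (SE 0.17). Kcnj16, found in glia, differed by 0.13 (SE 0.30) and 0.54 (SE 0.28), the second of which was 0.32 without percussion sham 3. The 6 astrocyte markers had a summed level of 5.38 to 5.63 in percussion sham and 5.46 to 5.85 in percussion trauma, with 4 of 6 higher, and their part in the result was not tested. Without Kcnj1, which was admitted through percussion trauma alone, 7 of 9 inward rectifiers were lower after rotational injury and 7 of 9 were higher after percussion injury.

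Without Kcnk15, which was admitted through percussion trauma alone, 5 of 10 two-pore channels were higher after rotational injury and 6 of 10 after percussion injury. Kcnk5 (TASK2), an acid-sensitive channel best known from kidney, was at -4.17, -4.96 and -4.39 in rotational sham and -3.47, -4.05 and -3.63 in rotational trauma. It was at -4.60, -5.08, -4.86 and -5.11 in percussion sham and -4.08, -4.56 and -4.90 in percussion trauma. The rotational groups did not overlap, and in the percussion model 1 of 3 trauma samples reached into the sham range. The differences were 0.79 (SE 0.25, limma adjusted p = 0.54) and 0.40 (SE 0.23, limma adjusted p = 0.53), with a mean of 0.59 (SE 0.17, limma adjusted p = 0.30). Without percussion trauma 1 the percussion difference was 0.18. With normexp background correction the rotational difference was 0.36 and the mean 0.31.

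Kcnk6 (TWIK2) was at -2.69, -2.26 and -2.61 in rotational sham and -1.96, -2.38 and -2.47 in rotational trauma. It was at -1.97, -1.99, -1.89 and -2.06 in percussion sham and -1.44, -1.75 and -1.75 in percussion trauma. All percussion trauma samples were above all percussion sham samples, and in the rotational model only rotational trauma 1 was above all sham samples. The differences were 0.25 (SE 0.15) and 0.33 (SE 0.14), with a mean of 0.29 (SE 0.10, limma adjusted p = 0.41). The rotational value was 0.10 without rotational trauma 1. Against the sham of each model, Kcnk5 and Kcnk6 had positive estimates after both traumas, as the meningeal and mural markers above did. Mean levels in percussion sham and rotational sham were -4.91 and -4.51 for Kcnk5, and -1.98 and -2.52 for Kcnk6. The summed mural markers were higher in percussion sham (0.92 to 1.16) than in rotational sham (0.43 to 0.80). The summed meningeal markers overlapped between the sham groups. The part of meningeal and mural cells in these values was not tested.

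Kcnk1 (TWIK1) differed by -0.03 (SE 0.10) in both models, and Kcnk2 (TREK1), a stretch-sensitive channel, by -0.09 (SE 0.13) and 0.09 (SE 0.12). The other kept probes of Kcnk2 gave -0.31 (SE 0.12) and -0.26 (SE 0.15) after rotational injury. After percussion injury they gave -0.02 (SE 0.11) and 0.30 (SE 0.14). Kcnk4 (TRAAK), its relative, was at -1.28, -0.66 and -0.98 in rotational sham and -1.32, -1.18 and -1.46 in rotational trauma, with 1 overlapping pair and a difference of -0.35 (SE 0.19). Kcnk16 (TALK1) spread from -5.89 to -2.54 in rotational trauma, and its difference of 0.83 had an SE of 0.61. That difference was 0.05 without rotational trauma 3 and 1.72 without rotational trauma 2. Kcnk15 was not well above background in any rotational sham sample (-6.91, -6.81 and -6.49) and, of the rotational trauma samples (-7.41, -6.66 and -4.51), was above it only in the third. The groups overlapped, and the difference in measured means turned from 0.54 to -0.30 without rotational trauma 3, so no fold is given. For Kcnj1 no array of either rotational group or of percussion sham was above background, and no fold is given for it either.

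**Figure D3:**
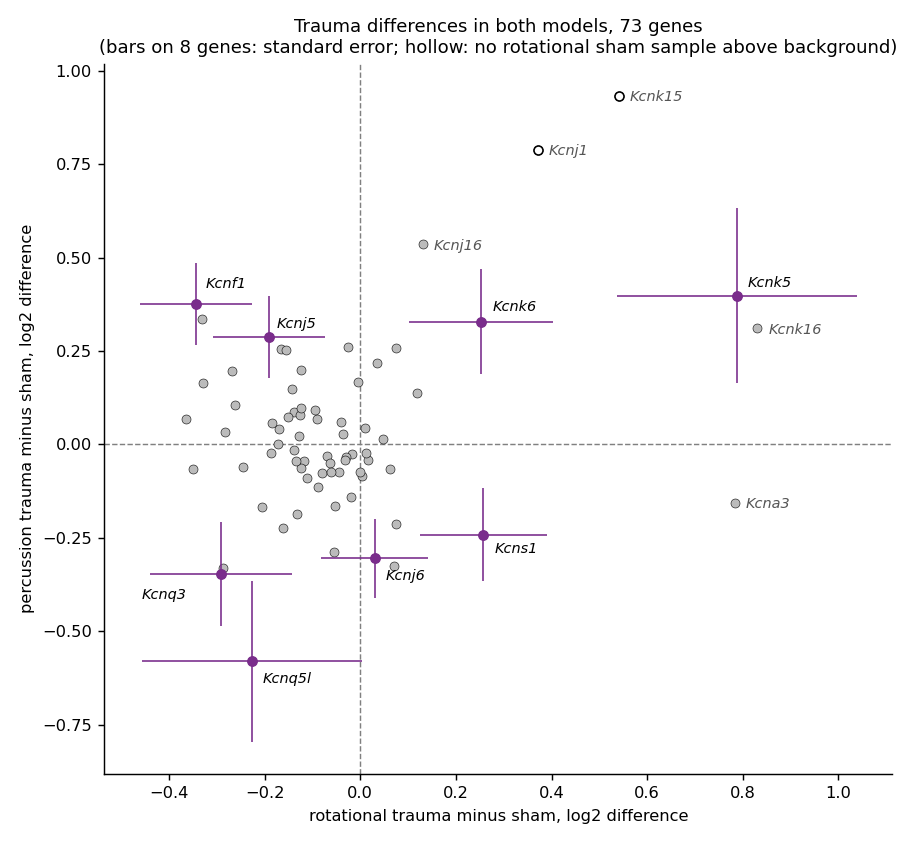
Log2 difference after rotational injury (horizontal axis) against that after percussion injury (vertical axis) for the 73 genes; bars are 1 SE on 8 of them and hollow points mark 2 genes with no rotational sham array above background. Kcnf1 lies at -0.34 and 0.37, Kcnq3 and Kcnq5l lie low in both models, and Kcnk5 and Kcnk6 lie above 0 in both.

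Both models gave estimates of the same sign for 52.1% of the 73 genes (11 higher in both, 27 lower in both), against 48.5% of all genes. In the mean of both effects 50 of 73 genes were below 0, where 52.8% of all genes were, and the median was -0.04 against -0.01. No potassium channel gene was separated in the same direction in both models, where 0.8% of all genes were.

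Of 22 genes for partner proteins of these channels, 19 were measured. None passed in limma in the rotational, percussion, mean or difference test. After rotational injury 14 of 19 were lower, among them Dpp10, an accessory subunit of Kv4 pores, at -0.33 (SE 0.14), and after percussion injury 12 of 19 were higher. Abcc8, the sulfonylurea receptor of the ATP-sensitive channel, was at -0.23 (SE 0.10) after percussion injury and -0.20 (SE 0.07, limma adjusted p = 0.44) in the mean of both.

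The last comparison describes the sham groups, where model and slide cannot be told apart. In percussion sham against rotational sham 27 of 73 genes (9 higher, 18 lower) passed in limma, where 24.9% of all genes passed (9.17% higher, 15.7% lower). Of these, 26 (8 higher, 18 lower) were above background in at least 1 of the sham samples, and the other was Kcnj1. The groups did not overlap for 38 genes, where 43% of all genes did not. The count of 27 was 13 without rotational sham 3 and 16 without rotational sham 1, fits in which 11.6% and 14.3% of all genes passed.

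Kcnh4 (ELK1) had the smallest p. It was at -1.51, -1.58 and -1.50 in rotational sham and -0.83, -0.93, -0.96 and -0.86 in percussion sham, far apart against the spread within groups, with a difference of 0.64 (SE 0.08, limma adjusted p = 0.0012). Kcnq3 was higher by 0.94 (SE 0.14, limma adjusted p = 0.0019). Kcnk16 was at -4.92, -5.26 and -4.63 in rotational sham and -2.06, -1.87, -2.63 and -2.35 in percussion sham, a difference of 2.71 (SE 0.57, limma adjusted p = 0.0084). Kcnk15 was at -3.37, -4.37, -7.55 and -3.89 in percussion sham, where percussion sham 3 lay below every rotational sham sample. The difference in measured means was 1.94 (SE 0.92) and did not pass (limma adjusted p = 0.14). Its 95% interval of -0.07 to 3.95 included no difference, and no rotational sham sample was above background, so no fold is given. Without percussion sham 3 the difference in measured means was 2.86 in place of 1.94.

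Lower in percussion sham were Kcnip2 (-0.65, SE 0.11), a Kv4 partner, Kcnf1 (-0.54, SE 0.11) and Kcnab1 (-0.69, SE 0.14), with limma adjusted p of 0.0038, 0.0070 and 0.0075. Kcnj11 (-0.71, SE 0.17) and Kcnj9 (-0.56, SE 0.14) were lower too, with limma adjusted p of 0.015 and 0.014. By class, 5 of 10 inward rectifiers, 4 of 9 silent modifiers, 4 of 9 auxiliary subunits and 4 of 11 two-pore channels passed. So did 3 of 7 Kcnh genes and 3 of 15 Kv1 to Kv4 pores, where 24.9% of all genes passed. The 5 inward rectifiers include Kcnj1, which was above background on no sham array and was admitted through percussion trauma alone. Among the partner genes 6 of 19 passed, beside the same 24.9% of all genes. Of these Dpp6 (-0.61, SE 0.10), Dlg4 (-0.86, SE 0.18), Gnb5 and Akap5 were lower, and Abcc9 (0.59, SE 0.13) and Abcc8 were higher. All 5 measured striatal markers had negative estimates in the same comparison and 2 of them passed, and their part in these values was not tested.

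**Figure D4:**
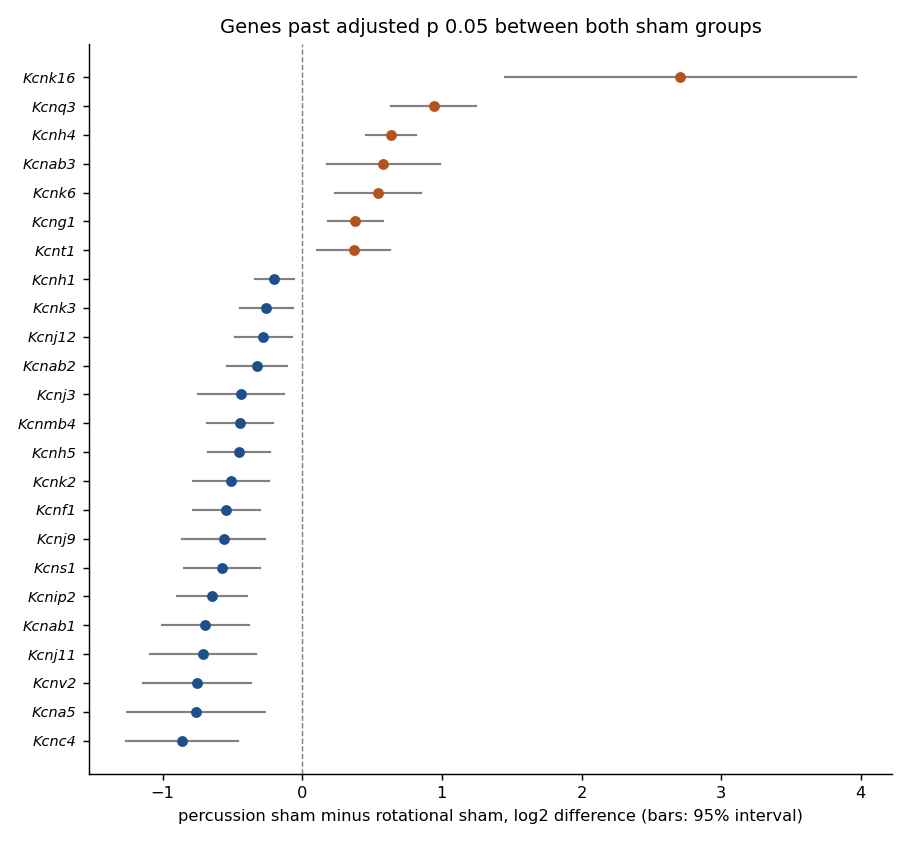
Log2 difference between percussion sham and rotational sham with its 95% interval (bars) for 24 of the 26 genes that passed an adjusted p of 0.05 in limma and were above background in a sham sample. Values are those of the brightest probe of each gene. Of the genes plotted 7 are higher in percussion sham, with Kcnk16 at 2.71 the farthest from 0, and 17 are lower, with Kcnc4 at -0.86 the lowest.

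Where a gene had several probes, the probes did not always give the same value. Of the 73 genes 21 had several kept probes (48 in all), and all probes of a gene agreed in sign for 17 of 21 in the rotational model, 14 of 21 in the percussion model and 16 of 21 between the sham groups. Between the sham groups Kcng1 was higher in its brightest probe (0.38, SE 0.09) and lower in its other one (-0.24, SE 0.12). Kcnj3 gave -0.44 (SE 0.14) in its brightest probe and 0.01 (SE 0.12) in its other one. Probe 1 of Kcnq3 was higher in percussion sham (0.94, SE 0.14) and probe 2 was lower (-0.20, SE 0.09), while both were lower after each trauma (-0.29 and -0.20 after rotational injury, -0.35 and -0.12 after percussion injury). The GC content was 35% in probe 1 and 45% in probe 2.

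The levels that rest on 1 probe, which is the case for 52 of the 73 genes, have no such check.

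**Figure D5:**
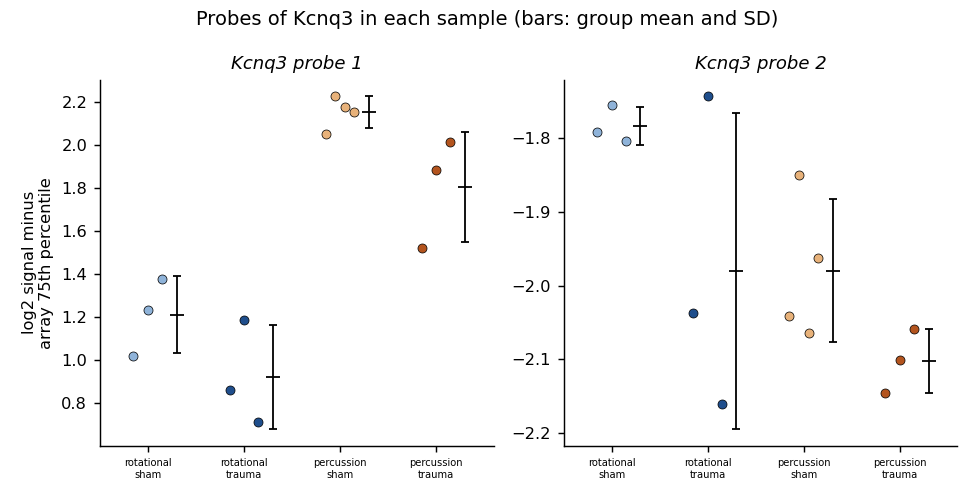
Level of the 2 probes of Kcnq3 in every sample, as log2 signal minus the 75th percentile of the array, with group mean and SD; each panel has its own vertical scale. Probe 1 is higher in percussion sham (2.05 to 2.23) than in rotational sham (1.02 to 1.38), while probe 2 is lower (-2.06 to -1.85 against -1.80 to -1.75).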

How the data were processed

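Spots were quantified by the authors with Feature Extraction 10.5.1.1 from Agilent, per the file headers. Per the file headers, the authors' processed signal is an intensity that was background-subtracted and detrended, and it is not scaled between arrays. A second deposited file, of log2 values normalised by the authors, served as an alternative. Control and outlier spots were left out, spots of a probe were averaged as log2, and the 75th percentile of each array was subtracted. Of 30367 probes 20004 were kept. With limma 3.58.1 in R 4.3.3, group means were estimated over the 13 arrays together (9 residual and 2.22 prior degrees of freedom). P-values were two-sided and adjusted over 17250 genes (Benjamini-Hochberg, threshold 0.05). The number of arrays limits the precision. Data were simulated for the rotational comparison (17244 genes) with normal noise, no slide effect and some genes changed by a log2 of 1 or 2. The fit recovered 79% of the genes changed by 1. Many more genes passed there than in the real test, which loosens the adjusted threshold, so 79% is not the power of the real test.

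Genes named were those passing in a trauma test (up to 12 per direction), else up to 5 per direction of smallest p, a fixed list, genes separated in both models, and 3 per direction between shams. Kcnk9 and Kcnj2 of that list were not measured, and results for some genes are not reported here. Genes named beyond it (separated in 1 model, class members, genes passing between shams) were chosen after their values were seen. The members and lists were chosen with earlier results of these data known. Alternatives of background, scaling, filter, naming and samples were tried.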

Additional observations from a re-analysis of the deposited data

Results flagged for a closer look

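In Kcnab2, percussion sham 2 stood apart from its group at -1.45, with the next sample at -1.58. It was the only one of the 73 genes with such a sample among the 4 percussion shams, and chance flags about 1 in 20 groups. For Kcnf1, trauma and sham groups did not overlap in either model, in opposite directions, and the difference between both effects was 0.72. In the percussion model the closest samples were percussion trauma 3 at -1.05 and percussion sham 2 at -1.07. The test of that difference did not pass (limma adjusted p = 0.21, and between 0.014 and 0.41 over the alternatives, the lowest with no filter on dim probes, where 14.3% of all genes passed).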

How the results depend on the processing

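No difference that passed changed direction under the 13 alternatives that keep all samples or under leaving out each of the 13 samples in turn. Estimates that did not pass could change sign, such as that of Kcnab2 after percussion injury. This was not limited to estimates near 0. That of Kcnk15 after rotational injury went from 0.54 to -0.30 without rotational trauma 3. Calls between the shams were lost most often for Kcnk3 and Kcnj12, among others. The limits are the small groups, 1 probe for most genes, and slide column, which cannot be told apart from trauma within a model. With no filter on dim probes 2 of 89 genes passed in the percussion model and 5 of 89 in the difference of both effects, where 11% and 14.3% of all genes passed, and of these only Kcnf1 is among the 73. Without percussion trauma 3, 1 gene (Kcnf1) passed in the percussion model (0.533% of all genes), a count that was 0 to 1 over the samples left out. With each array's median subtracted, the medians were -0.055 (percussion), -0.073 (mean of both), 0.034 (difference) and -0.13 (shams). With probes of a gene averaged they were 0.034 (percussion) and 0.12 (difference), and the authors' deposited values gave 0.036 (difference). Leaving out 1 sample gave medians of -0.099 to -0.045 (rotational), -0.0042 to 0.029 (percussion) and 0.054 to 0.11 (difference), and 13 to 28 passing genes between shams. The labels do not say whether replicate numbers pair the samples. In deviations from group means, same-numbered sham and trauma samples correlated at 0.11, 0.26 and 0.02 in the rotational model and 0.28, -0.02 and -0.01 in the percussion model. Differently numbered ones lay between -0.23 and 0.13 and between -0.24 and 0.23. These ranges overlap, so the values cannot decide whether samples were paired. With the replicate number as a block, 11 genes passed between shams (10.8% of all genes), 10 of them shared with the 27. The alternative that counts a probe as above background where at least as many of its spots are above it as are not was chosen after seeing the data, and gave 76 genes, with 0 passing after either trauma.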
